A study of Mus musculus with 2 samples.

Results

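Collagens are the proteins of the triple helix, and in skin they make up most of the dermis, the basement membrane under the epidermis and the fibrils that tie both together. The collagen genes described here are the 43 genes whose name on the array design is Col, a number, the letter a and a number, measured by 67 probes on 76 spots, out of 30133 genes on the array. They were divided by the structures that their products form into 11 fibrillar collagens, 10 collagens of the basement membrane and its surroundings, and 22 other collagens. Expression was measured in whole skin of newborn mice at postnatal day 0, with 1 array of *Pnpla1*+/+ (wild type) and 1 array of *Pnpla1*-/- (knockout) RNA, each a pool from 6 animals. All animals were on the C57BL/6N background, and the wild types were littermates of the knockouts from crosses of heterozygotes. The paper describes the knockouts as homozygous nulls made with the knockout-first allele tm1a(KOMP)Wtsi of *Pnpla1*, and reports removal of the IRES-LacZ and Neo cassettes by flippase. It does not state which form of the allele the arrayed knockouts carried. The knockout was global and not restricted to keratinocytes. *Pnpla1* encodes an enzyme that the outer epidermis needs to make acylceramides, lipids of the permeability barrier, and the arrays addressed how skin gene expression differs without it.

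Each collagen is a trimer of alpha chains with glycine at regular steps along the helix, and the chains can be products of 1 gene or of several. Fibroblasts secrete collagens I, III and V, which assemble into the same dermal fibrils, whereas collagen IV forms the sheet of the basement membrane, and collagens XVII and VII fasten basal keratinocytes to that sheet and the sheet to the dermis. Fibril-associated collagens (FACITs, with an interrupted helix) coat the fibrils, and collagen VI forms beaded filaments between them.

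The 2 arrays differed in overall brightness. The 75th percentile of processed signal (spot intensity after background subtraction, in the arbitrary units of the scanner) was 2108 in wild type and 1734 in knockout, and 71.7% and 73.3% of spots were well above background. Differences below are therefore log2 of the knockout signal minus log2 of the wild-type signal after division by these percentiles, so that 1 is 2-fold higher and -1 is 2-fold lower in knockout, while intensities are given before that division. With 1 array per genotype, there is no estimate of the variation between animals or pools, and no test was possible. The technical SD of a difference was 0.047 for spots at the same place on both arrays (median over 385 probes printed 8 times or more), and 0.090 when spots were not paired by place. *Pnpla1* itself read 579 in wild type and 114 in knockout, a difference of -2.07. Whether this probe lies in the targeted part of the gene was not determined. *Xist*, made only from the inactive X chromosome, differed by 1.12 (853 and 1528), and *Ddx3y*, on the Y chromosome, by -2.19 (1863 and 336). The labels do not give the sex of the pooled animals, and genotype and the mix of sexes cannot be told apart here.

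Of the 43 collagen genes, 35 were well above background on both arrays and 3 on the wild-type array only, for which the difference is a bound. The 5 others, *Col4a3*, *Col6a4*, *Col9a3*, *Col10a1* and *Col19a1*, were not well above background on either array. Among the 38 genes with a difference, the median was -0.22 (quartiles -0.60 and -0.03), whereas the median of all 22374 genes with a difference was 0.0026 (quartiles -0.26 and 0.32). In knockout skin, 29 collagen genes (76.3%) were lower than 0, a side on which 49.8% of all genes lay. These 29 include the 3 bounds, which passed through wild type alone and could only be lower, and over genes measured on both arrays 26 of 35 collagens (74.3%) were lower than 0, against 51.1% of all 20680 such genes. The differences were moderate in size. At 2-fold, 1 collagen gene was higher (2.63%, against 6.7% of all genes) and 1 was lower (2.63%, against 3.04% of all genes), so the 2-fold shares were not above the background in either direction. At 1.5-fold, 10 collagen genes were lower (26.3%, against 9.35% of all genes) and 3 were higher (7.89%, against 13.8% of all genes). Without the bound of *Col2a1*, which is among the 10, the genes measured on both arrays gave 9 lower (25.7%, against 8.66%) and 3 higher (8.57%, against 11.6%). When the arrays were left unscaled, 3 collagens were 2-fold lower (7.89%, against 6.37% of all genes) and 1 was higher (2.63%, against 4.47%). When they were centred on the E1A spike-in, RNA added to each labelling reaction, 11 were lower (28.9%, against 9.82%) and 1 was higher (2.63%, against 3.73%). The median of the collagens lay below that of all genes under each of the 12 alternative settings, by 0.21 to 0.33. Because whole skin was measured, fewer cells of a type and less RNA per cell cannot be told apart for any of these genes.

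**Figure D1:**
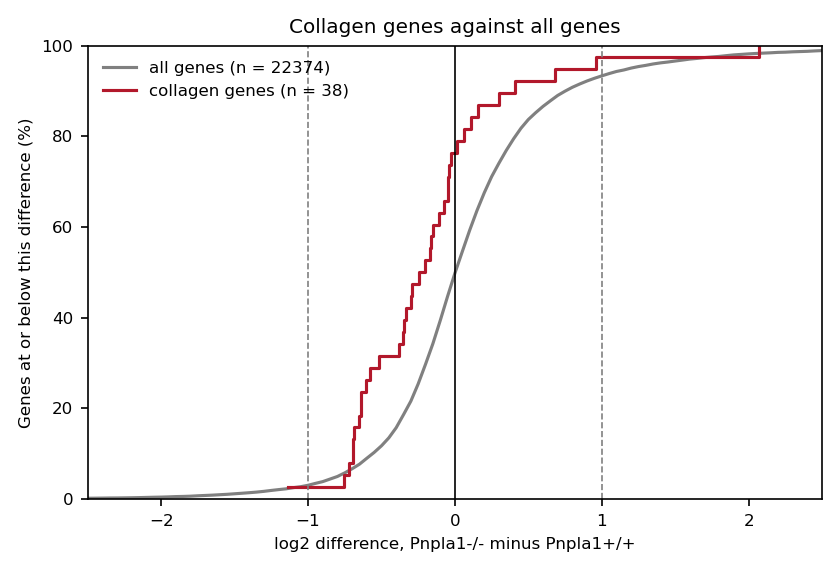
Cumulative share of genes (percent, vertical axis) at or below each log2 difference between *Pnpla1*-/- and *Pnpla1*+/+ skin (horizontal axis, cropped at -2.5 and 2.5), for the 38 collagen genes with a difference (red) and all 22374 genes (grey). The red curve runs left of the grey one through the middle of the range, crossing 0 at 76.3% against 49.8%, and both curves are close to each other at the dashed lines of 2-fold.

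Strongly detected genes were also described apart, taken by the mean log2 intensity of both arrays so that neither genotype decided which genes passed. At a mean intensity of 1000 or more, 19 collagen genes had a median of -0.33, and 16 of them were lower than 0, with a range from -0.72 to 0.16. The 10377 genes of the array at that intensity had a median of -0.03, and 53.7% were lower than 0. *Col4a1* was printed on 10 spots, whose differences ran from -0.09 to -0.02 with an SD of 0.02. Of the 35 collagen genes measured on both arrays, 4 lay within the paired technical SD of no difference, namely *Col3a1*, *Col4a1*, *Col9a2* and *Col25a1*, and with *Col4a4* and *Col5a3* 6 lay within the unpaired one.

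**Figure D2:**
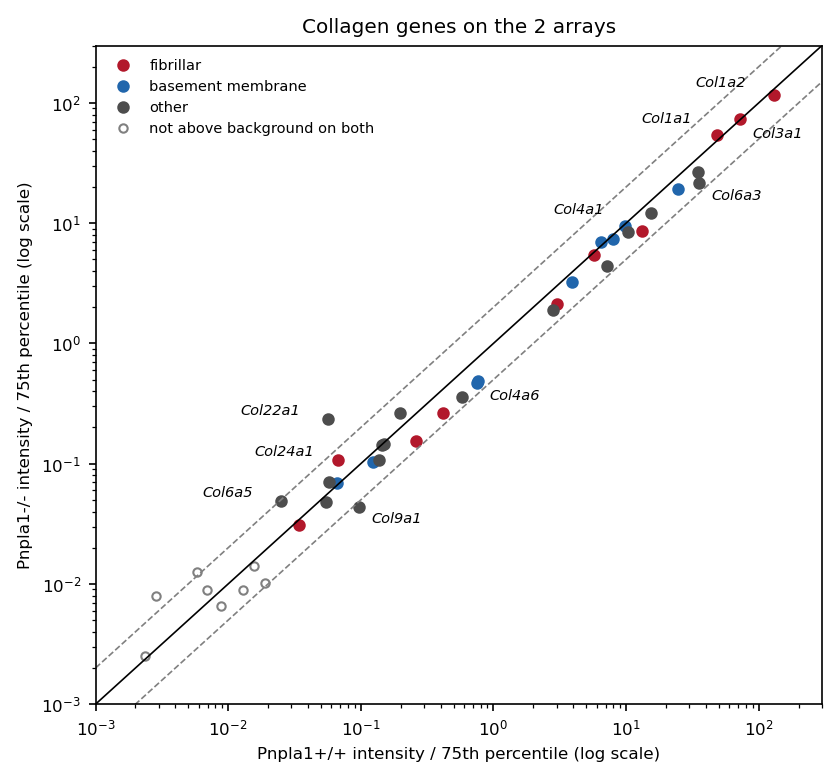
Intensity of each collagen gene divided by the 75th percentile of its array, in *Pnpla1*+/+ (horizontal axis) and *Pnpla1*-/- skin (vertical axis), both on log scales, by class. The solid line marks equal values and the dashed lines 2-fold, and most filled points lie just below the solid line, with *Col22a1* above the upper and *Col9a1* below the lower dashed line.

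Among the fibrillar collagens, the chains of the main dermal fibrils differed by 0.17 or less in the main scaling, while *Col5a1* and *Col5a2*, whose product is built into the same fibrils, were lower in knockout. *Col1a1*, the alpha 1 chain of collagen I, read 101801 in wild type and 93319 in knockout, a difference of 0.16 that became negative without scaling or with centring on the spike-in (lowest -0.27). *Col1a2*, the other chain of collagen I, read 275482 and 201776, a difference of -0.17 that was -0.34 with cyclic loess, -0.38 with quantile normalization, -0.45 without scaling and -0.60 with the spike-in. *Col3a1*, the chain of collagen III, read 152334 and 126461, a difference of 0.01 whose sign depended on the normalization, 7 of 12 settings placing it below 0. The 2 chains of collagen I, which assemble as 2 alpha 1 and 1 alpha 2, thus differed from each other by 0.32.

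Collagen V starts collagen I fibrils and limits their width. *Col5a1* read 27994 in wild type and 14805 in knockout (-0.64, or 1.56-fold lower), and *Col5a2* read 6408 and 3691 (-0.51). *Col5a3*, a further chain found in part of the trimers, read 12151 and 9486 (-0.08), so the chains of this 1 collagen covered a range of 0.56. Collagen XI is the related collagen of cartilage fibrils. *Col11a1* read 548 and 267 (-0.75), and *Col11a2* read 71.7 and 53.2 (-0.15, but 0.14 with normexp background correction). Of the remaining fibrillar collagens, *Col27a1*, which cartilage expresses, read 881 and 461 (-0.65), and *Col24a1*, known from bone, read 142 and 187 (0.68), the only fibrillar gene 1.5-fold or more higher. The difference of *Col24a1* was 0.40 without scaling, 0.25 with the spike-in and 0.55 with normexp, all under 1.5-fold. *Col2a1*, the main cartilage collagen, was dim in wild type (40.2) and not well above background in knockout (17.7), which makes it at least 1.52-fold higher in wild type. Its wild-type signal was below that of the highest of 153 negative control spots (73.9), and with normexp background correction its difference was -0.0024. In all, 8 of the 11 fibrillar genes were lower than 0, against 49.8% of all genes. At least 1.5-fold lower were 4, *Col2a1* and its bound included, against 9.35% of all genes. The median of the class was -0.17 (-0.60 with the spike-in and -0.07 with normexp).

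Several of these collagens are typical of cartilage or bone, which skin should not hold. The chondrocyte markers *Matn1*, *Matn3* and *Cnmd* were not well above background on either array, the 4 others of 7 had a median of -0.07 (0.05 with normexp), and the list summed to 1.03 times the 75th percentile in wild type and 0.868 in knockout, with *Sox9*, which hair follicles also express, as its brightest gene. The osteoblast list, with *Sp7* not above background and *Alpl* brightest, summed to 0.516 and 0.479, with a median of -0.21 (-0.01 with normexp). *Runx2* was at -1.76 (113 and 27.4), *Ibsp* at -0.41, *Alpl* at -0.0019 and *Bglap* at 0.68 (47.5 and 62.6), but the knockout signal of *Runx2* and the wild-type signal of *Bglap* were below the highest negative control spots of those arrays (49.2 and 73.9). Their part in the differences of *Col2a1*, *Col11a1*, *Col24a1* and *Col27a1* was not tested.

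The basement membrane collagens split by chain pair. *Col4a1* and *Col4a2*, the chains of the collagen IV that is found under all epithelia and around vessels, differed by -0.04 (20591 in wild type and 16417 in knockout) and 0.11 (13635 and 12114). The difference of *Col4a2* turned to -0.17 without scaling and -0.32 with centring on the spike-in. *Col4a5* and *Col4a6*, which form a collagen IV of the epidermal and smooth muscle basement membrane, were both lower. *Col4a5* read 1607 and 848 (-0.64, 1.56-fold lower), and *Col4a6* read 1587 and 807 (-0.69, 1.62-fold lower). Both genes lie on the X chromosome, and the 849 X-linked genes with a difference had a median of -0.02. A dimmer probe of *Col4a6* read 211 and 173, a difference of -0.0034, and the mean over both probes was -0.35, under 1.5-fold. *Col4a4*, known from kidney, was faint, with 141 and 121 at its standing probe (0.06, with a sign that changed under 4 settings) and 51.6 and 101 at another (1.25).

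The pair *Col4a1* and *Col4a2* and the pair *Col4a5* and *Col4a6* each start from opposite strands. In the RefSeq promoter table (GRCm38.p6, 250 bases before to 50 after each start), the starts of *Col4a5* and *Col4a6* are 1343 bases apart. Their windows share 0 bases, whereas the windows of *Col4a1* and *Col4a2* share 78 bases. Within each pair the differences were close to each other, with ranges of 0.05 and 0.16 at the standing probes, whereas the pairs lay on either side of the median of all collagens. The 150 bases before the starts of the lower pair, and before that of *Col1a2* from the fibrillar class, are shown 5′ to 3′ on the strand of the gene, with capitals for matches to CCAAT, to the TATA box letters TATAAA and to the GC box GGGCGG on either strand.
*Col4a5*, chrX:141475269-141475418, plus strand: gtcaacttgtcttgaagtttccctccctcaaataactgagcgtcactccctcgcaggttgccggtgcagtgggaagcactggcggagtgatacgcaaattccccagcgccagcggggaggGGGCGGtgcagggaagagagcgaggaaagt
*Col4a6*, chrX:141474077-141474226, minus strand: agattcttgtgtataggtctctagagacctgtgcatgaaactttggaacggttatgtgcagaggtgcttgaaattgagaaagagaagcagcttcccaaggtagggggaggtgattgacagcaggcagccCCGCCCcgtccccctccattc
*Col1a2*, chr6:4505468-4505617, plus strand: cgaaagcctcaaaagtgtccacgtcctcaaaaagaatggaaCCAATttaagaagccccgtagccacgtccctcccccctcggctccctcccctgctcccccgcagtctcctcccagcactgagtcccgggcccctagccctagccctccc
*Col4a5* and *Col4a6* each hold GGGCGG, 30 and 21 bases before the start, and *Col1a2* holds CCAAT 109 bases before it. Of the 43 collagen genes, 35 had 38 windows in the table, and *Col1a1*, *Col2a1*, *Col4a3*, *Col5a2*, *Col9a3*, *Col12a1*, *Col14a1* and *Col22a1* had none. On either strand GGGCGG was in 23 of these 38 windows (60.5%, against 35.7% of all 32851 windows), CCAAT in 13 (34.2%, against 37.4%) and TATAAA in 5 (13.2%, against 13.6%).

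The collagens that anchor the epidermis were modestly lower. *Col7a1*, whose product forms the anchoring fibrils, read 51667 in wild type and 33368 in knockout (-0.35, 1.27-fold lower), and *Col17a1*, the collagen of hemidesmosomes, read 8301 and 5581 (-0.29). *Col18a1*, found in most basement membranes, read 16911 and 12880 (-0.11) at one probe and 11993 and 10442 (0.08) at the other. *Col15a1*, found next to the basement membranes of vessels and muscle, read 259 and 180 (-0.24), with -0.13 and 0.31 at its other probes and -0.02 over all of them. With *Col4a3* not above background, 7 of 9 basement membrane genes were lower than 0, against 49.8% of all genes. At least 1.5-fold lower were 2 of them, against 9.35% of all genes. The median was -0.24, but -0.045 when all probes of each gene were averaged. Of the markers of basal keratinocytes, which make collagens VII and XVII, 4 of 5 were higher than 0. Their median was 0.16, but -0.12 without scaling and -0.27 with centring on the spike-in. The list summed to 156 times the 75th percentile in wild type and 215 in knockout, with *Krt5* brightest (0.22) and *Krt14* at 1.35. Their part in the differences of the basement membrane collagens was not tested.

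**Figure D3:**
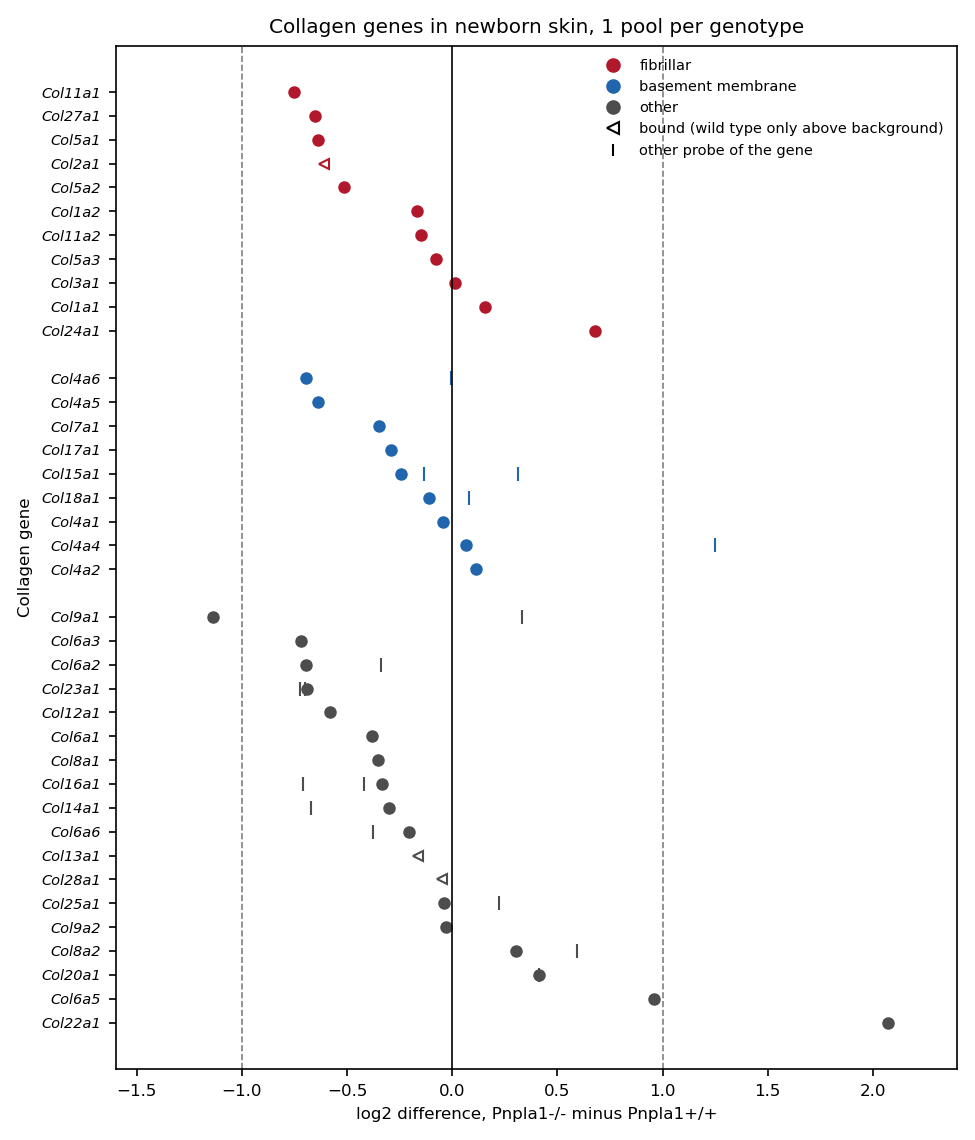
log2 difference between *Pnpla1*-/- and *Pnpla1*+/+ skin (horizontal axis) for each of the 38 collagen genes with a difference, sorted within its class. Filled circles are the probe standing for the gene, open triangles are bounds from genes above background in wild type only, ticks are other probes of the same gene, and dashed lines mark 2-fold; of the circles, those of *Col22a1* (2.07) and *Col9a1* (-1.14) lie beyond them, as does the tick of *Col4a4* (1.25).

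Of the 22 other collagens, 18 had a difference, with a median of -0.25, and 14 were lower than 0, against 49.8% of all genes. The 14 include 2 bounds, *Col13a1* and *Col28a1*, whose direction was fixed by their detection in wild type alone. Over the 16 measured on both arrays the median was -0.32. Collagen VI was lower in all of its 3 common chains. *Col6a1* read 73825 in wild type and 46569 in knockout (-0.38), *Col6a2* read 15070 and 7650 (-0.70), and *Col6a3* read 74591 and 37227 (-0.72, 1.65-fold lower). A dimmer probe of *Col6a2* read 513 and 334 (-0.34), and the mean over its probes was -0.52, under 1.5-fold. The 3 chains form 1 trimer, and their differences at the standing probes covered 0.34. Of the later chains that can take the place of alpha 3, *Col6a5* was faint and higher (53.2 and 85.1, 0.96), and *Col6a6* read 115 and 82.5 (-0.20, but 0.03 with normexp). The wild-type signal of *Col6a5* was below that of the highest negative control spot there (73.9). The FACITs of the dermis were lower as well. *Col14a1* read 21738 and 14531 (-0.30), *Col16a1* read 32331 and 21120 (-0.33), and *Col12a1* read 5922 and 3259 (-0.58). *Col23a1*, a transmembrane collagen, was measured at 3 separate probes with nearly 1 value, -0.69, -0.70 and -0.72. Apart from *Col22a1* and *Col9a1*, described next, the remaining other collagens with a difference lay between -0.35 (*Col8a1*) and 0.41 (*Col20a1*, -0.02 with the spike-in).

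Both collagens past 2-fold were FACITs of other tissues and faint in these arrays. *Col22a1*, known from the junctions of muscle with tendon, had the highest difference of the 38, at 119 in wild type and 410 in knockout (2.07, or 4.20-fold higher). Its probe lies at chr15:71628906-71628965 (mm9, minus strand). *Col9a1*, a coat collagen of cartilage fibrils, read 204 and 76.3 (-1.14, or 2.20-fold lower) at a probe at chr1:24259125-24259184 (mm9, plus strand), whereas its second probe read 48.6 and 50.2 (0.33). The mean over both probes was -0.40, and the first probe was at -0.65 with normexp, so this 2-fold call rests on 1 probe and on the background correction. Both standing probes past 2-fold hold the polyadenylation hexamer AATAAA, as did 13.4% of collagen probes and 12.6% of all 39429 probes. The 30 bases around it are printed because the 2-fold calls rest on these probes, 5′ to 3′ in the sense direction, with AATAAA in capitals.
*Col22a1*: tgtgagttgcaaAATAAAagttttcaatgg
*Col9a1*: cccactacattcAATAAAattggtgcttaa
Markers of skeletal muscle, which whole newborn skin includes, were all well above background, and 5 of 6 were higher than 0. Their median was 0.13, which turned to -0.15 without scaling and -0.30 with the spike-in. They summed to 219 times the 75th percentile in wild type and 251 in knockout, with *Myh8* brightest. Their part in the difference of *Col22a1* was not tested.

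A gene represented by 1 probe can hide disagreement within it. Of 17 collagen genes with more than 1 probe, 13 had more than 1 with a difference. In these 13, the median range between probes was 0.36, the largest was 1.47 (*Col9a1*), and in 4 the probes lay on both sides of 0. A few probes can be read as coding for the triple helix from their letters alone, because glycine codons start with GG and, in the helix, recur every 9 bases. A run of GG at 4 or more such steps was found in 4 of 67 collagen probes (5.97%) and in 40 of all 39429 probes (0.101%). These 4 probes of 60 bases are shown 5′ to 3′ with the GG of the run in capitals, and their positions are on mm9.
*Col16a1*, chr4:129756457-129756516: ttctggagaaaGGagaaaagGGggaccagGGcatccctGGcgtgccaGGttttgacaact
*Col15a1*, chr4:47283786-47283845: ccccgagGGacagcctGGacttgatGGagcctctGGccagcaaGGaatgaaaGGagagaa
*Col25a1*, chr3:130270497-130270556: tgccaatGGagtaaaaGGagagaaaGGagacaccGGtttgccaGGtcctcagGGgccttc
*Col14a1*, chr15:55347733-55347792: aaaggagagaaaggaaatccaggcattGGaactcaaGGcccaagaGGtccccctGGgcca
None of the 4 was the probe standing for its gene. The helix probe of *Col16a1* read 217 in wild type and 109 in knockout (-0.71, against -0.33 at the standing probe), and that of *Col14a1* read 1468 and 758 (-0.67, against -0.30). For *Col15a1* it read 146 and 149 (0.31, against -0.24), and for *Col25a1* 43.1 and 41.4 (0.22, against -0.04). Both signals of the *Col25a1* helix probe were below those of the highest negative control spots of their arrays (73.9 and 49.2). The helix probes were thus further from 0 than the standing probes, to the lower side in *Col14a1* and *Col16a1* and to the higher side in *Col15a1* and *Col25a1*.

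Most genes on the lists of collagen modification, folding, processing and cross-linking were also lower than 0 in knockout, a side on which 49.8% of all genes lay. Of 20 genes of collagen modification and folding, 17 were lower than 0 (median -0.37). *Serpinh1*, the collagen chaperone HSP47 and the brightest of the list, read 36041 in wild type and 19773 in knockout (-0.58). The single member past 2-fold was *P3h2*, a prolyl 3-hydroxylase, which read 140 and 269 (1.23). Of 13 genes of procollagen processing and cross-linking, *Tll2* and *Adamts3* were not above background, and each of the 11 others was lower than 0 (median -0.52, lowest -0.82, highest -0.02). *Pcolce*, the enhancer of C-propeptide removal and the brightest, read 75420 and 51615 (-0.27). None of these 11 passed 2-fold in the main scaling.

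The non-collagen partners of the fibrils varied. Of 14 fibril-associated proteoglycans and glycoproteins, 9 were lower than 0 (median -0.18), against 49.8% of all genes. *Sparc*, the brightest, read 226096 and 194996 (0.07). In contrast, each of 11 elastic fibre genes was lower than 0, from -0.88 to -0.14 (median -0.57). *Mfap2*, a microfibril protein and the brightest, read 41997 and 20478 (-0.75). Laminins, nidogens and perlecan, the other components of basement membranes, had 11 of 14 genes lower than 0 (median -0.31). Their brightest gene, *Lamb1*, read 35829 and 22299 (-0.40), and 2 genes passed 2-fold in opposite directions. *Lama1*, a laminin chain mostly of embryonic tissue, read 210 and 637 (1.88), and *Lamc3* read 2770 and 929 (-1.29). The medians of these 5 lists of matrix genes were below 0 under each setting tried.

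**Figure D4:**
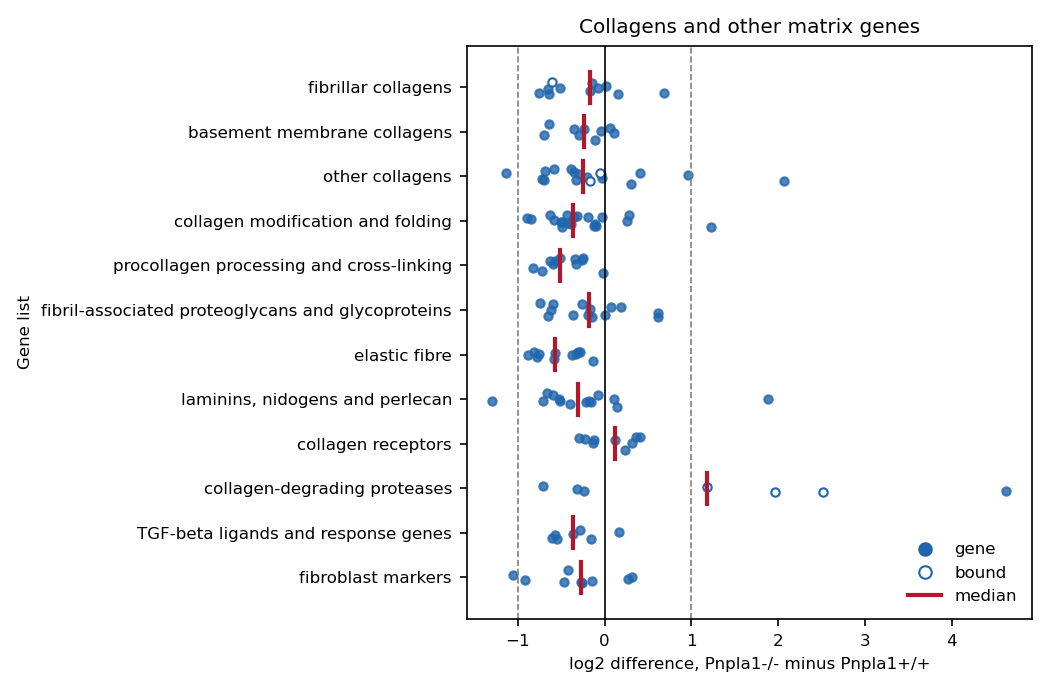
log2 difference between *Pnpla1*-/- and *Pnpla1*+/+ skin (horizontal axis) for members of the collagen classes, of lists of matrix genes and of fibroblast markers. Filled points are genes measured on both arrays, open points are bounds, red bars are medians and dashed lines mark 2-fold; the 11 processing and cross-linking and 11 elastic fibre genes lie left of 0, and of the 4 collagen-degrading proteases right of 2-fold 3 are bounds.

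Among genes that sense, regulate or degrade collagen, 1 of the 4 proteases measured on both arrays, *Mmp8*, passed 2-fold, and 3 others had a bound past 2-fold whose direction was fixed by their detection in knockout alone. *Mmp8*, the neutrophil collagenase, read 59.5 in wild type and 1210 in knockout (4.63, but 3.69 with normexp), its wild-type signal being below that of the highest negative control spot there (73.9). *Mmp9*, *Mmp1b* and *Mmp13* were well above background in knockout only, and were at least 5.74-fold, 3.89-fold and 2.27-fold higher there in the main setting (113, 76.6 and 44.7 in knockout). With normexp the log2 bounds of *Mmp9* and *Mmp1b* went from 2.52 and 1.96 to 1.28 and 1.07. The signal of *Mmp13* was below that of the highest negative control spot in knockout (49.2), and its difference of 1.18 was 0.90 without scaling, 0.91 with quantile normalization, 0.75 with the spike-in and 0.64 with normexp, all under 2-fold. The proteases with strong signal in wild-type skin were lower instead. *Ctsk*, the cathepsin that cleaves collagen in lysosomes and the brightest of the list, read 11191 and 5625 (-0.71), with *Mmp2* at -0.32 and *Mmp14* at -0.24. The median of the 7 with a value was that of *Mmp13*, and it was -0.28 over the 4 measured on both arrays. Leukocytes carry *Mmp8* and *Mmp9*, and their markers summed to 8.51 times the 75th percentile in wild type and 11.1 in knockout, with *Itgam* brightest (-0.03), *Ptprc* at 1.51 and *Adgre1* at 1.24. Their part in the proteases was not tested. The 9 collagen receptors were near the median of all genes, at 0.12 (-0.16 without scaling and -0.31 with the spike-in). *Ddr2*, a receptor kinase for fibrillar collagen and the brightest, read 5099 and 3427 (-0.29). Of 7 genes of TGF-beta, the main inducer of collagen transcription, and its response, 6 were lower than 0 (median -0.36), against 49.8% of all genes. *Tgfb3*, the brightest, read 7319 and 4681 (-0.36), and the ligand *Tgfb1*, the gene not lower, read 745 and 689 (0.17).

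Fibroblasts are the main source of dermal collagen. Of their 9 markers, all well above background, 7 were lower than 0 (median -0.27), against 49.8% of all genes. The markers summed to 160 times the 75th percentile in wild type and 134 in knockout, with *Dcn* brightest (126384 and 93730, -0.15). The median of these markers was -0.45 with quantile normalization, -0.55 without scaling and -0.70 with the spike-in. The markers went apart, since *Twist2* read 14860 and 5889 (-1.05) and *Dpt* was at -0.91, whereas *Pdgfra* and *Pdgfrb* were at 0.32 and 0.27. *Lum* and *Dcn* are also among the fibril-associated genes above. The part of fibroblast number in the collagen differences was not tested. Of the other cell types, endothelial markers were higher than 0 in 5 of 5 genes (median 0.39, -0.04 with the spike-in, summed 4.46 and 5.74, brightest *Kdr*). Medians of adipocyte (0.06), pericyte (0.06) and Schwann cell markers (0.03) were near 0, and all turned negative with median scaling, without scaling and with the spike-in. Their sums were 72.5 and 76.4, 11.2 and 10.96, and 2.69 and 4.64, with *Fabp4*, *Acta2* and *Mbp* as their brightest genes. *Mbp* alone was past 2-fold among the Schwann cell markers (1.34), and the 3 others lay between -0.19 and 0.19.

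**Figure D5:**
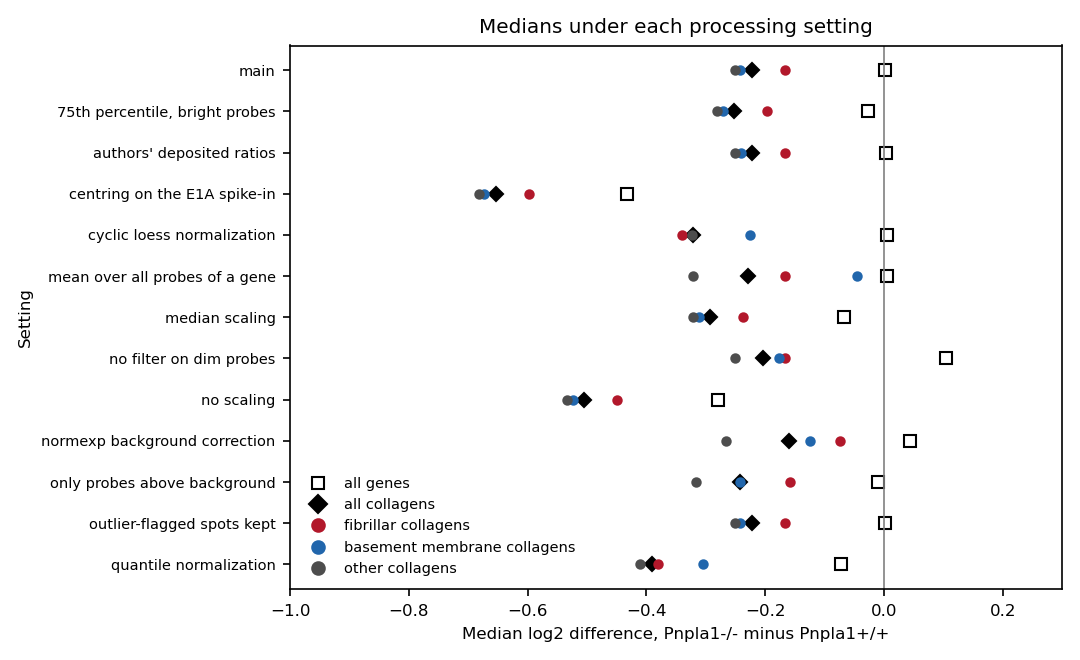
Median log2 difference between *Pnpla1*-/- and *Pnpla1*+/+ skin (horizontal axis) of all genes (open squares), all collagens (diamonds) and the 3 collagen classes (circles) under the main and 12 alternative settings (rows). The scalings move all symbols together, and the collagen diamond lies left of the square in each row, by 0.21 to 0.33.

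The sign of a single collagen gene was less stable than that of the group. Under the 12 alternative settings, 28 of 38 collagen genes kept the direction of their difference wherever a value was obtained, and 10 changed it at least once. Measured from the median of all genes under the same setting, 33 kept it. *Col1a1*, *Col3a1*, *Col4a2*, *Col4a4* and *Col11a2* were the fibrillar and basement membrane genes among the 10, and the others were *Col6a6*, *Col8a2*, *Col9a2*, *Col20a1* and *Col25a1*.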

How the data were processed

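RNA from 1 wild-type and 1 knockout pool was hybridised to 1-colour Agilent mouse arrays on 1 slide. The authors scanned them and deposited Feature Extraction 11.5.1.1 output, from which the linear processed intensity was used, and a table whose value is a ratio of that intensity to 1 factor per array (2109 and 1734). Each log2 intensity was taken relative to the log2 of its array's 75th percentile (43020 spots, controls excluded) with Python 3.11.15 and pandas 2.3.3, and other normalizations were run in limma 3.58.1. Outlier-flagged spots (138 and 82, none of a collagen) were left out, repeated spots averaged, and the brightest probe over both arrays stood for a gene. No spot was saturated. A bound sets the bright value against the higher of the other array's lowest signal well above background and the dim probe's own. Probe positions are those in the files (mm9), and symbols were updated through RefSeq (7973 of 39429 probes kept the name in the files). A design of 1 array per genotype allows no test, and precision is limited by the number of arrays. The scripts were tested on simulated data. Named were all fibrillar and basement membrane collagens, other collagens past 2-fold or among the 5 brightest, and in each list the members past 2-fold (at most 4) and the brightest. Further collagens, list members and markers were named after their values were seen. The members and lists were chosen with earlier results of these data known. The look at strongly detected genes was chosen after seeing the data. Alternatives covered scaling, background correction, probe choice, the dim filter and thresholds.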

Additional observations from a re-analysis of the deposited data

Results flagged for a closer look

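Collagen probes outside the naming rule also carried signal. *Col26a1* is named *Emid2* on the array, and its 2 probes, which overlap on chr5 (137217634-137217693 and 137217629-137217688, mm9, minus strand) and so are not separate measurements, read 13198 in wild type and 4199 in knockout (-1.37) and 14429 and 4543 (-1.39, 2.61-fold lower). No difference among the 38 collagen genes above was as low. The second probe holds the hexamer in capitals, shown 5′ to 3′.
*Col26a1*: gatgttatttcaAATAAAggtgctctctcc
A probe described as type XXII collagen but without a gene symbol (TC1681647, chr15:71699345-71699404, mm9, minus strand) read 54.8 and 159 (1.82), its wild-type signal being below that of the highest negative control spot (73.9). A probe described as similar to bovine collagen I (TC1608815) read 1902 and 1716 (0.13), but its position is on chromosome 4 and that of *Col1a1* on chromosome 11. A probe described as collagen X gave no signal well above background in either genotype, nor did that of *Col10a1*.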

How the results depend on the processing

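Scaling by 1 factor per array moved all genes together, whereas quantile and cyclic loess normalization did not. The median of all genes was 0.0026 in the main setting, -0.28 without scaling, -0.43 with centring on 8 E1A spike-in probes and 0.10 without the filter on dim probes. In the order all, fibrillar, basement membrane and other collagens, medians were -0.29, -0.24, -0.31 and -0.32 with median scaling, -0.50, -0.45, -0.52 and -0.53 without scaling, -0.39, -0.38, -0.30 and -0.41 with quantile normalization, and -0.65, -0.60, -0.67 and -0.68 with the spike-in. With cyclic loess they were -0.32 (all), -0.34 (fibrillar) and -0.32 (other), and with normexp -0.16 (all), -0.073 (fibrillar) and -0.12 (basement membrane). Averaging every probe of a gene gave -0.045 for basement membrane and -0.32 for other collagens, use of probes above background on both arrays gave -0.32 for other collagens, and no filter on dim probes gave -0.18 for basement membrane collagens. At least 2-fold lower were 3 of 38 collagens without scaling (7.89%, against 1424 of all genes, 6.37%). With the spike-in 11 of 38 were lower (28.9%, against 2178, 9.82%). With normexp 0 of 36 were lower (0%, against 322, 1.46%), and with the mean over probes 0 of 38 (0%, against 664, 2.97%). Without the dim filter 3 of 43 were at least 2-fold higher (6.98%, against 3041, 10.1%). At 1.5-fold 10 of 38 were lower (26.3%, against 2092 of all genes, 9.35%) and 3 higher (7.89%, against 3092, 13.8%). At 3-fold 0 of 38 were lower (228 of all 22374 genes). At a mean intensity of 1000 or more, a choice made after seeing the data, medians were -0.33 (all), -0.12 (fibrillar), -0.29 (basement membrane) and -0.48 (other collagens). Of the 19 collagens at that intensity, 0 were 2-fold lower (159 of 10377 genes at that intensity) and 0 higher (457). The median of collagen-degrading proteases turned from 1.18 to -0.28 when genes with a bound were left out, since 3 of its 4 highest members are bounds. No paired analysis was possible because each genotype had 1 array. Among 576 other differences under alternatives (single genes, lists and all genes), 45 had the opposite sign to the main setting. Faint genes, such as *Col2a1*, are limited by background.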
